A study of Mus musculus with 20 samples.

Results

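The genes of the extracellular matrix and of the fibroblasts that make it were followed in mouse hearts: 45 genes, listed by symbol and looked up in a table of transcript levels and in lists of m6A peaks. Of the 45, 44 were among the 11856 genes of the expression table, and all 44 were among the 10344 tested genes, those whose mean reached 1 FPKM (fragments per length of transcript and size of library). Cthrc1, a collagen-modulating secreted protein, was absent from the table. The hearts came from 5 db/+ and 5 db/db mice of the C57BL/6 strain, and each heart was sequenced once as input RNA and once after immunoprecipitation of RNA bearing N6-methyladenosine (m6A), which makes 20 libraries. The db allele breaks the leptin receptor, so db/db mice become obese and diabetic, and db/+ mice carry a single copy of it and serve as the lean controls. Every cell of the animal carries the allele, and it has not been introduced into the heart alone. The genotype field of the labels calls the controls wild type, while the titles name db/+, and the titles were followed. Ages, sexes and the level of the mutated receptor were not analysed here.

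The cardiac matrix is a scaffold in which fibrillar collagens bear tension, a basement membrane of type IV collagen and laminins wraps each myocyte and vessel, and elastic fibres give recoil. Cardiac fibroblasts secrete most of it. Transforming growth factor beta (TGF-beta) raises its production, lysyl oxidases crosslink it, and matrix metalloproteinases and their tissue inhibitors set its turnover. Fibrosis, the build-up of this matrix, is a known feature of the diabetic heart. m6A is a methyl mark on adenosines of messenger RNA, read here as regions in which immunoprecipitated RNA exceeds input RNA.

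Sequencing depth is unknown, because the deposited FPKM hold no counts. The mitochondrial genome took 33.5% of the FPKM in the library of db/+ 5 and 38.7% to 43.3% in the other db/+ hearts. In db/db it took 42.0% to 44.7%, and of the db/+ hearts only db/+ 4 lay inside that range. The number of distinct m6A peaks was 20021 in db/+ 5, 8462 in db/db 5 and 12385 to 15607 in the other 8 hearts. Results that rest on db/+ 5 and db/db 5 are given with and without them. The fibroblast markers themselves were all present in every heart: their FPKM summed to 537 in db/+ 1, the lowest, and 878 in db/db 2, the highest. Gsn alone made 291 of the first sum and 547 of the second. In whole-heart RNA, fewer cells of a type and less RNA per cell cannot be told apart. Each heart is a separate animal in the labels, so n = 5 per genotype. Errors beside FPKM are SDs, and those beside log2 fold changes are standard errors (SE).

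Transcript levels of the matrix and fibroblast genes did not pass the test between the genotypes. With limma on log2(FPKM + 1), 0 of the 44 genes were called higher and 0 lower in db/db (adjusted p under 0.05 by Benjamini-Hochberg), where 1.29% and 1.72% of all tested genes were. At an unadjusted p under 0.05, 8 genes were higher and 0 were lower, against 7.33% and 11.9% of all tested genes. Those 8 were the fibroblast genes Gsn, Lum, Pdgfra, Dcn and Dpt, the turnover genes Timp3 and Mmp14, and the minor fibrillar collagen Col5a3. The log2 fold change was above 0 in 30 of the 44 (68.2%), against 42.4% of all tested genes, and its median was 0.13 against -0.03. The genes were chosen with earlier results of these data known, so these shares only describe them. In 0 of the 44 did the 5 values of one genotype lie wholly outside those of the other, against 2.23% of tested genes for db/db higher and 4.18% for db/db lower. The pseudocount of 1 makes the fold changes of low genes smaller than in FPKM itself.

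**Figure D1:**
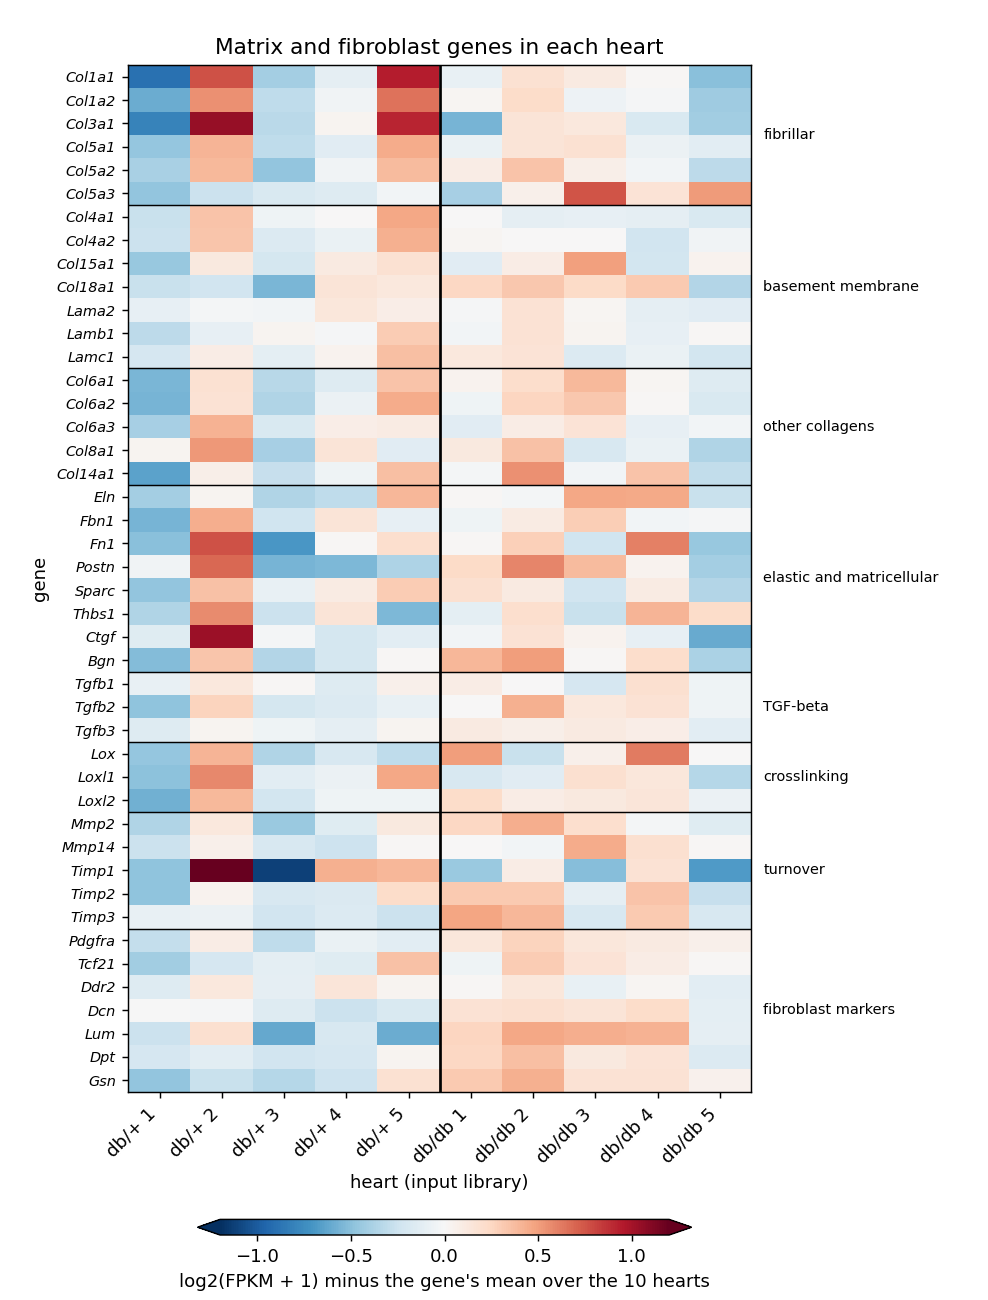
Level of each of the 44 genes (rows, by role) in each of the 10 input libraries (columns), as log2(FPKM + 1) minus the gene's mean over the 10 hearts. The column of db/+ 1 is low and those of db/+ 2 and db/+ 5 are high in the fibrillar collagens, while the fibroblast markers are higher in most db/db hearts than in most db/+ hearts.

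The starts of 4 genes on which the results turn are shown first, as the 250 bases before the start given by RefSeq (build GRCm38.p6): the fibrillar collagen Col3a1 and the inhibitor Timp1, both at their highest in db/+ 2, the matricellular gene Postn, and the fibroblast gene Gsn, which had the smallest p. The windows are chr1:45311288-45311537, chrX:20869916-20870165, chr3:54360857-54361106 and chr2:35256109-35256358, all on the + strand. Capitals mark the CCAAT box, the Sp1 letters GGGCGG, the TATA box (TATAAA) and the TEAD letters GGAATG on either strand, and no marked motif overlaps another.
Col3a1: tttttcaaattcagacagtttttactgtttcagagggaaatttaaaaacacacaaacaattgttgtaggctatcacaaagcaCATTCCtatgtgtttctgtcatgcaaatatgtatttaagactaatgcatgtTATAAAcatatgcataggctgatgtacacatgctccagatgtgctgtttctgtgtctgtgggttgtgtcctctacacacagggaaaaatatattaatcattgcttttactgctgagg
Timp1: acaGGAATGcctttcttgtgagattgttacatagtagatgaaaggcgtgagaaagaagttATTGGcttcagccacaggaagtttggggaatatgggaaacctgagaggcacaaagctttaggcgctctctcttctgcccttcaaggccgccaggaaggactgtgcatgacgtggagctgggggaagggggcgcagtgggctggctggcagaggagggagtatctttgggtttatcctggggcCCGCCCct
Postn: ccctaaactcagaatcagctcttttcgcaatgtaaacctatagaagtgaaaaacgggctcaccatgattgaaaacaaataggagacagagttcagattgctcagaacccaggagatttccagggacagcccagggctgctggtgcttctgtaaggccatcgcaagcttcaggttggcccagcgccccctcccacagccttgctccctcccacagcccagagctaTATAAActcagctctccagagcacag
Gsn: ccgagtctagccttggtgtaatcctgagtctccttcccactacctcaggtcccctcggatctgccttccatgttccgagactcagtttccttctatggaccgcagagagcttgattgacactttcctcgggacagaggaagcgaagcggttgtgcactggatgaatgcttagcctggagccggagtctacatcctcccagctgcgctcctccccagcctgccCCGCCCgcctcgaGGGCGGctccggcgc

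These starts differ in kind. TATAAA began 26 bases before the start of Postn and 117 bases before that of Col3a1, and neither Timp1 nor Gsn held it in this window. The Col3a1 window was 35.2% G or C, and the other 3 were 52.0% to 60.8%. GGGCGG, the letters that Sp1 family factors bind, began 8 bases before the start of Timp1 on the other strand and 28 and 15 bases before that of Gsn. Windows were matched by symbol for 29 of the 45 genes. GGGCGG was in 16 of the 29 (55.2%) and in 32.7% of all 32851 windows, CCAAT in 10 (34.5%) and 33.8%, TATAAA in 4 (13.8%) and 12.4%, and GGAATG, the letters that TEAD factors bind, in 2 (6.9%) and 12.6%. Also searched on both strands, and not capitalised, were TGANTCA (AP-1), in 1 (3.4%) and 6.7%, CAGACA, in 6 (20.7%) and 17.1%, and the SMAD palindrome GTCTAGAC, in 0 and 0.2%. A match describes the letters of the window only.

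Fibroblast markers are described first, as 5 of the 8 genes with an unadjusted p under 0.05 are among them. Of 7 markers, 0 passed the adjusted threshold, 6 had a log2 fold change above 0, and the median over the 7 was 0.28. Gsn (chr2:35256380-35307892), gelsolin, an actin-severing protein that is abundant in fibroblasts and is also made by other cells of the heart, stood at 291, 338, 320.5, 341 and 461 FPKM in db/+ hearts 1 to 5 and 503, 547, 459, 459 and 421 FPKM in db/db hearts 1 to 5. All db/db hearts were above 4 of the db/+ hearts, and db/+ 5 lay inside the db/db range, so the genotypes overlapped through that 1 heart. The db/+ mean was 350.4 ± 65.1 and the db/db mean 478 ± 48.5 FPKM (SD, n = 5; limma log2 fold change 0.46, SE 0.114, adjusted p = 0.0534). Gsn passed in 7 of 20 alternative settings, with adjusted p from 0.006005 to 0.147 over the 20, and without db/+ 5 it passed with a log2 fold change 0.56, adjusted p = 0.00726. Scaled so that library medians were equal, Gsn and Pdgfra both passed and neither overlapped between genotypes. The matching shares of all tested genes are not given for that scaling, so nothing further is read from it.

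Lum (chr10:97565128-97572703), lumican, a small proteoglycan that spaces collagen fibrils, had the largest ratio of means among the markers, 1.497, at 36.9, 50.9, 28.6, 38.7 and 28.9 FPKM in db/+ hearts 1 to 5 and 53.2, 61.3, 60.3, 59.3 and 41.1 FPKM in db/db hearts 1 to 5. The db/+ heart numbered 2 was above db/db 5 and below the other db/db hearts, and the remaining db/+ hearts were below every db/db heart. The limma result was a log2 fold change 0.59, SE 0.158, adjusted p = 0.0721, from 36.8 ± 9.11 to 55.1 ± 8.42 FPKM (SD, n = 5). Lum passed when db/+ 2 was left out (log2 fold change 0.71, adjusted p = 0.0273) and when db/db 5 was (log2 fold change 0.69, adjusted p = 0.0386), within a range of adjusted p over the 20 alternatives of 0.0273 to 0.235.

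Dcn (chr10:97479609-97518143), decorin, the neighbouring gene of Lum and a proteoglycan of the same family that binds collagen and TGF-beta, was at 121, 121, 109.6, 102 and 107 FPKM in db/+ hearts 1 to 5 and 138, 139.5, 136, 142 and 112 FPKM in db/db hearts 1 to 5. Here 4 of the db/db hearts were above every db/+ heart, and db/db 5 lay among the db/+ values. The means were 112 ± 8.46 and 134 ± 12.1 FPKM (SD, n = 5; limma log2 fold change 0.25, SE 0.0773, adjusted p = 0.113). Dpt (chr1:164796644-164824266), dermatopontin, which helps collagen fibrils assemble, showed the same heart out of place: it was at 75.1, 79.3, 73.6, 74.9 and 88.7 FPKM in db/+ hearts 1 to 5 and 103, 111, 94.1, 96.8 and 76.9 FPKM in db/db hearts 1 to 5. Its means were 78.3 ± 6.204 and 96.3 ± 12.7 FPKM (SD, n = 5; limma log2 fold change 0.29, SE 0.0936, adjusted p = 0.122). Without db/db 5, Dcn (log2 fold change 0.31, adjusted p = 0.0345) and Dpt (log2 fold change 0.37, adjusted p = 0.0321) both passed, and over the 20 alternatives their adjusted p ran from 0.0345 to 0.225 and from 0.0125 to 0.245. The peak list of db/db 5 was also the shortest of the 10.

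Pdgfra (chr5:75152292-75198215), the platelet-derived growth factor receptor that marks cardiac fibroblasts, was at 4.84, 6.58, 4.74, 5.74 and 5.51 FPKM in db/+ hearts 1 to 5 and 6.81, 7.56, 6.82, 6.65 and 6.39 FPKM in db/db hearts 1 to 5. The overlap rested on db/+ 2, which was above db/db 5 alone. From 5.48 ± 0.748 FPKM the mean was 6.85 ± 0.434 FPKM in db/db (SD, n = 5; limma log2 fold change 0.28, SE 0.0833, adjusted p = 0.0956), and without db/+ 2 the gene passed with a log2 fold change 0.34, adjusted p = 0.04801, within 0.0447 to 0.186 over the 20 alternatives. The other 2 markers were less apart. Tcf21, the transcription factor of the fibroblast lineage, was at 2.67, 3.28, 3.52, 3.45 and 5.26 FPKM in db/+ hearts 1 to 5 and 3.75, 5.07, 4.498, 4.21 and 3.96 FPKM in db/db hearts 1 to 5 (limma log2 fold change 0.21, SE 0.127, adjusted p = 0.387), with db/+ 5 the highest heart of all. Ddr2, a collagen-binding receptor kinase of fibroblasts, ranged from 5.06 to 6.44 FPKM over the 10 hearts, and its means of 5.79 ± 0.626 and 5.71 ± 0.483 FPKM (SD, n = 5) differed by less than the spread between hearts (log2 fold change -0.01).

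**Figure D2:**
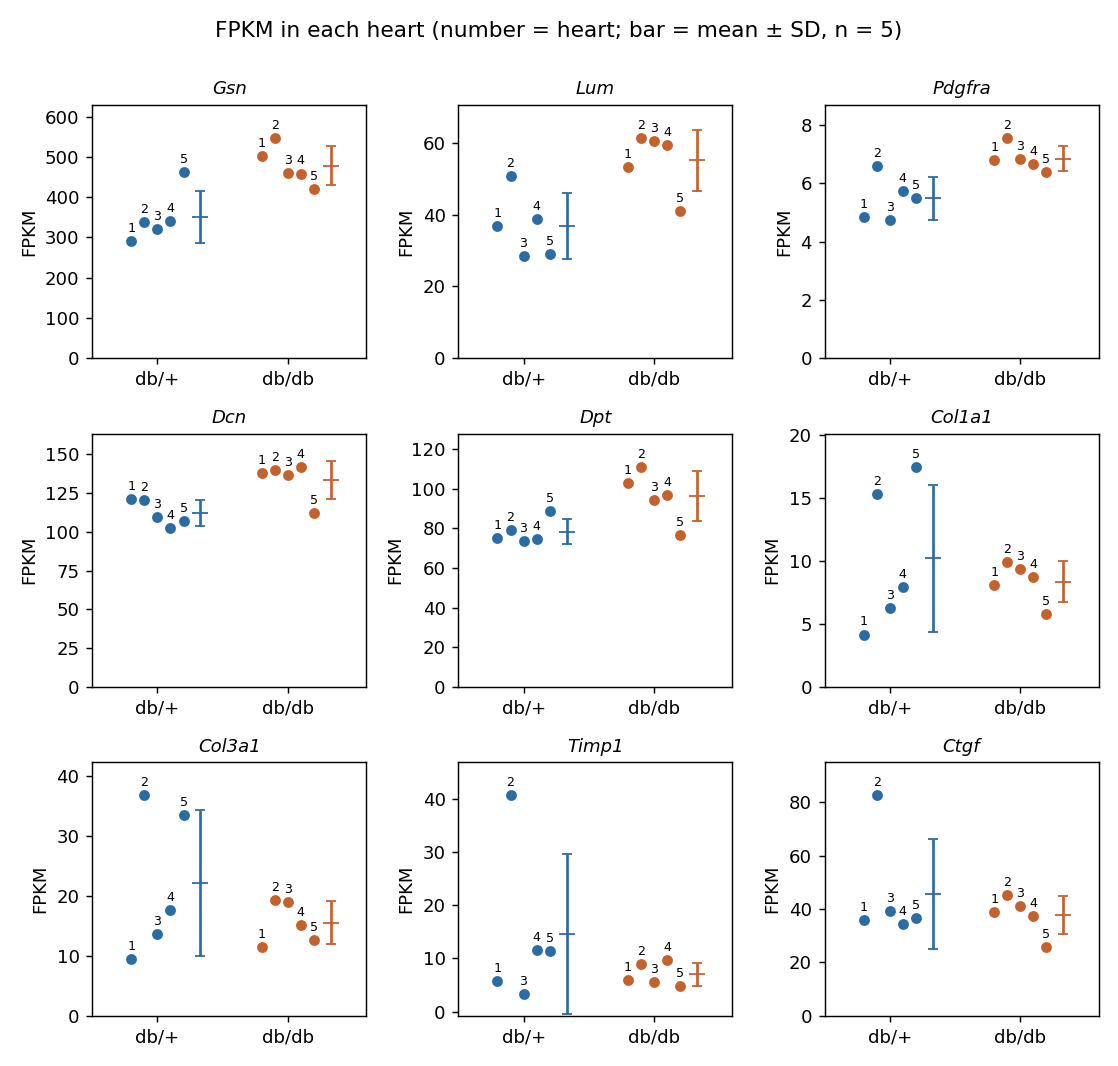
FPKM of 9 genes in each heart of each genotype on linear axes. Points are hearts, numbered, and bars are the mean ± SD of 5 hearts. In Gsn, Lum, Pdgfra, Dcn and Dpt a single heart joins the genotypes (db/+ 5, db/+ 2, db/+ 2, db/db 5 and db/db 5), while in Col1a1, Col3a1, Timp1 and Ctgf the spread lies within db/+.

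Leaving out db/+ 5 and db/db 5 together, the hearts with the most and the fewest peaks and with the lowest and the highest mitochondrial share, a setting chosen after the data were seen, Gsn (log2 fold change 0.61, adjusted p = 0.006005), Dpt (log2 fold change 0.41, adjusted p = 0.0125) and Dcn (log2 fold change 0.29, adjusted p = 0.0433) passed. The median log2 fold change of the 44 genes was then 0.25 against -0.01 over all tested genes. Of the 44, 38 were above 0, against 46.7% of all tested genes. With mitochondrial share in the fit as a covariate, the median of the 44 was 0.31 and Gsn alone passed (limma log2 fold change 0.65, adjusted p = 0.0318). That share ran higher in db/db, so this fit cannot cleanly separate it from genotype.

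The fibrillar collagens went both ways. Of the 6, 0 passed, 3 had a log2 fold change above 0, and the median was -0.04. That median was 0.12 without db/+ 5 and 0.19 without db/+ 5 and db/db 5, where that of the fibroblast markers was 0.35, and the difference between these groups was not tested. Col1a1 and Col1a2, the chains of type I collagen, the main tensile fibre of the heart, were set apart by single db/+ hearts and not by genotype. Col1a1 (chr11:94936224-94953042) was at 4.16, 15.3, 6.24, 7.96 and 17.5 FPKM in db/+ hearts 1 to 5 and 8.06, 9.89, 9.35, 8.74 and 5.79 FPKM in db/db hearts 1 to 5. In it db/+ 2 and db/+ 5 were above every db/db heart and db/+ 1 was below every one, so the db/db range lay inside the db/+ range. Its means were 10.2 ± 5.84 and 8.37 ± 1.59 FPKM (SD, n = 5; limma log2 fold change -0.12, SE 0.3099, adjusted p = 0.872), and its coefficient of variation (CV, SD over mean) was 57.1% in db/+ and 19.04% in db/db.

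Col1a2 had the same order of extremes, at 6.09, 14.7, 7.701, 9.403 and 15.9 FPKM in db/+ hearts 1 to 5 and 9.93, 11.5, 9.297, 9.66 and 6.96 FPKM in db/db hearts 1 to 5 (limma log2 fold change -0.10, SE 0.224, adjusted p = 0.844). Again db/+ 2 and db/+ 5 were the highest hearts and db/+ 1 the lowest. Col3a1 (chr1:45311538-45349706), type III collagen, which forms finer and more compliant fibrils, was the most abundant of the 6 and was at 9.499, 36.8, 13.6, 17.7 and 33.5 FPKM in db/+ hearts 1 to 5 and 11.4, 19.3, 18.98, 15.1 and 12.6 FPKM in db/db hearts 1 to 5. It too had db/+ 2 and db/+ 5 above all db/db hearts and db/+ 1 below all of them. Its means of 22.2 ± 12.2 and 15.5 ± 3.59 FPKM (SD, n = 5; limma log2 fold change -0.35, SE 0.321, adjusted p = 0.587) differed by less than the spread within db/+. Leaving out 1 heart moved the log2 fold change of Col1a1 from -0.35 without db/+ 1 to 0.11 without db/+ 5 and that of Col3a1 from -0.59 without db/+ 1 to -0.13 without db/+ 2.

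With mitochondrial share as a covariate the log2 fold changes of Col1a1, Col1a2 and Col3a1 were 0.49, 0.30 and 0.22 (limma adjusted p = 0.452, 0.568 and 0.815), above 0 where the fit without it gave values below 0. The share ran higher in db/db, so the fit with it cannot cleanly separate it from genotype. The direction of these 3 genes was therefore not fixed by the data. Col5a1 and Col5a2, chains of type V collagen that nucleates fibrils, had log2 fold changes of 0.02 and 0.06. Col5a3, another chain of that type, went another way. It was at 1.701, 2.14, 2.301, 2.37 and 2.65 FPKM in db/+ hearts 1 to 5 and 1.83, 2.903, 5.304, 3.19 and 4.35 FPKM in db/db hearts 1 to 5, so 4 db/db hearts were above all db/+ hearts and db/db 1 was below 4 of them. Its means were 2.23 ± 0.3502 and 3.52 ± 1.34 FPKM (SD, n = 5; limma log2 fold change 0.44, SE 0.182, adjusted p = 0.2198). In Col5a3 the larger spread was within db/db, with a CV of 15.7% in db/+ and 38.2% in db/db.

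**Figure D3:**
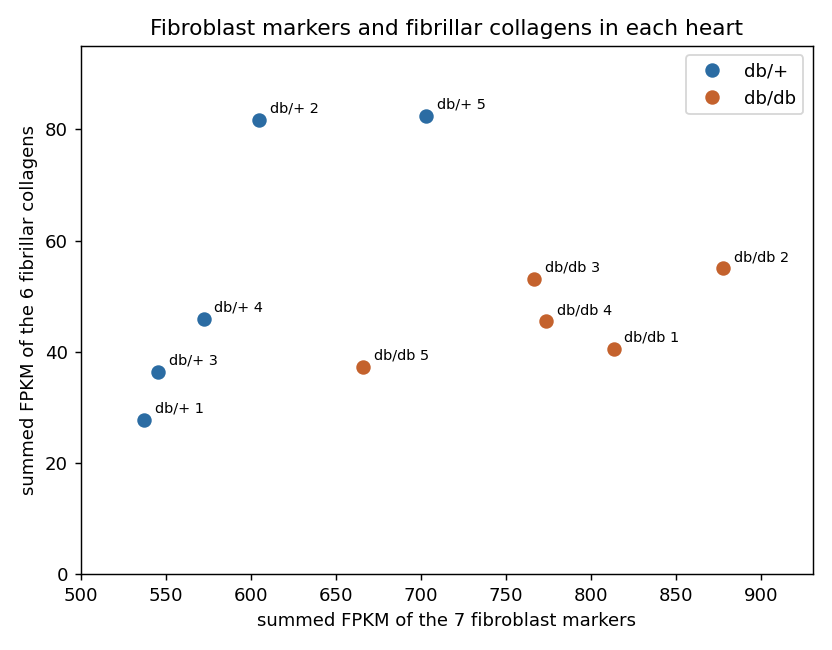
Summed FPKM of the 7 fibroblast markers (horizontal axis, which does not start at 0) against summed FPKM of the 6 fibrillar collagens (vertical axis) in each of the 10 hearts, by genotype. The collagen sum was 81.6 in db/+ 2 and 82.4 in db/+ 5 and at most 55.0 in any other heart. The marker sum was 537 to 605 in db/+ 1 to 4, 703 in db/+ 5 and 666 to 878 in the db/db hearts. Gsn alone made 291 to 341 FPKM of the marker sum in db/+ 1 to 4 and 461 in db/+ 5. In db/db it made 421 to 547, so Gsn weighs most on the horizontal axis.

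Basement membrane genes went both ways too. Of 7, 0 passed, 3 had a log2 fold change above 0, and the median was -0.02, or 0.06 without db/+ 5 and db/db 5. Col4a1 and Col4a2, the chains of type IV collagen that forms the basement membrane net, lie head to head on chromosome 8 and share their start region. Col4a1 was at 26.8, 41.3, 31.2, 32.5 and 45.1 FPKM in db/+ hearts 1 to 5 and 32.5, 30, 30.3, 30 and 28.5 FPKM in db/db hearts 1 to 5 (limma log2 fold change -0.19, SE 0.122, adjusted p = 0.406). The db/db hearts lay within 28.5 to 32.5 FPKM and inside the wider db/+ range, with db/+ 2 and db/+ 5 above all of them. Col4a2 was at 23.5, 35.9, 25.2, 26.7 and 38.3 FPKM in db/+ hearts 1 to 5 and 28.8, 28.4, 28.4, 23.96 and 27.4 FPKM in db/db hearts 1 to 5 (limma log2 fold change -0.10, SE 0.128, adjusted p = 0.715). Its highest hearts were again db/+ 5 and db/+ 2, and db/+ 1 was the lowest. CVs were 21.4% in db/+ and 4.73% in db/db for Col4a1, and 22.4% in db/+ and 7.18% in db/db for Col4a2.

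The laminin chains Lama2, Lamb1 and Lamc1, which polymerise into the sheet that binds the myocyte surface, had log2 fold changes of -0.02, 0.03 and -0.07. Lama2 ranged from 5.31 to 6.85 FPKM over the 10 hearts, the narrowest CV in db/+ of the 3 at 7.54%. Col15a1, a basement membrane collagen of muscle and capillaries, had a log2 fold change of 0.10. Col18a1, the collagen from which endostatin is cut, was at 1.45, 1.502, 1.01, 2.27 and 2.22 FPKM in db/+ hearts 1 to 5 and 2.49, 2.67, 2.45, 2.65 and 1.31 FPKM in db/db hearts 1 to 5 (limma log2 fold change 0.30, SE 0.1603, adjusted p = 0.322). In it 4 db/db hearts were above all db/+ hearts, and db/db 5 lay below 4 of the db/+ hearts.

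Among the other collagens, 0 of 5 passed, 3 were above 0 and the median was 0.14. Col6a1 and Col6a2, chains of the beaded type VI microfibrils that link cells to the interstitial matrix, had means of 16.97 ± 4.54 and 7.88 ± 2.46 FPKM in db/+ and 19.3 ± 2.93 and 8.59 ± 1.42 FPKM in db/db (SD, n = 5). Col6a1 was at 11.9, 20.4, 13.9, 15.9 and 22.8 FPKM in db/+ hearts 1 to 5 and 18.4, 20.7, 23.6, 18.04 and 15.9 FPKM in db/db hearts 1 to 5 (limma log2 fold change 0.20, SE 0.162, adjusted p = 0.531). The lowest heart of all was db/+ 1 and the highest was db/db 3. Col6a2 was at 5.17, 9.18, 6.06, 7.64 and 11.3 FPKM in db/+ hearts 1 to 5 and 7.71, 9.804, 10.3, 8.16 and 6.96 FPKM in db/db hearts 1 to 5 (limma log2 fold change 0.14, SE 0.175, adjusted p = 0.699), with db/+ 1 lowest and db/+ 5 highest. Col6a3, the longest chain of that type, had a log2 fold change that rounds to zero, and its direction turned with the pseudocount and with the scaling. Col8a1, a network-forming collagen of vessels, and Col14a1, which coats fibrils, had log2 fold changes of -0.07 and 0.22.

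Elastic fibre and matricellular genes were measured for 8 of 9 listed. Of the 8, 0 passed, 6 were above 0 and the median was 0.15. Sparc, a collagen-binding protein that helps procollagen mature, was the most abundant at 58.7, 104, 76.9, 87.7 and 101 FPKM in db/+ hearts 1 to 5 and 93.2, 88.1, 69.4, 87.3 and 63.6 FPKM in db/db hearts 1 to 5. Its means of 85.7 ± 18.6 and 80.3 ± 12.99 FPKM (SD, n = 5; limma log2 fold change -0.08, SE 0.158, adjusted p = 0.828) differed by less than the spread between hearts, with db/+ 2 highest and db/+ 1 lowest. Ctgf (chr10:24595442-24598683), connective tissue growth factor, a matricellular target of TGF-beta and of YAP and TEAD signalling, was at 36, 82.6, 39.2, 34.4 and 36.5 FPKM in db/+ hearts 1 to 5 and 38.9, 45.1, 41.03, 37.3 and 25.9 FPKM in db/db hearts 1 to 5. The heart db/+ 2 was far above the rest, and the other 9 lay between 25.9 and 45.1 FPKM. Its limma result was a log2 fold change -0.21, SE 0.227, adjusted p = 0.6595, and leaving out 1 heart moved the value from -0.29 without db/+ 4 to 0.02 without db/+ 2.

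Postn, periostin, which activated fibroblasts secrete, was at 8.48, 14.8, 5.62, 5.73 and 6.58 FPKM in db/+ hearts 1 to 5 and 10.5, 13.7, 11.7, 9.04 and 6.35 FPKM in db/db hearts 1 to 5. The highest heart was db/+ 2, the other db/+ hearts were at or below 8.48 FPKM, and 4 of the 5 db/db hearts were above that (limma log2 fold change 0.33, SE 0.244, adjusted p = 0.491). Bgn, biglycan, a proteoglycan close to decorin, was at 22.5, 41.2, 25.3, 27.99 and 32.9 FPKM in db/+ hearts 1 to 5 and 43.3, 46.5, 32.95, 37.8 and 24.7 FPKM in db/db hearts 1 to 5 (limma log2 fold change 0.30, SE 0.184, adjusted p = 0.405), with db/+ 1 lowest and db/db 2 highest. Eln, elastin, and Fbn1, the fibrillin that scaffolds it, had log2 fold changes of 0.25 and 0.12. Fn1, fibronectin, and Thbs1, thrombospondin-1, which can activate latent TGF-beta, had log2 fold changes of 0.09 and 0.18. In db/+ 2 both were at their highest, at 9.33 FPKM for Fn1 and 4.42 FPKM for Thbs1.

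**Figure D4:**
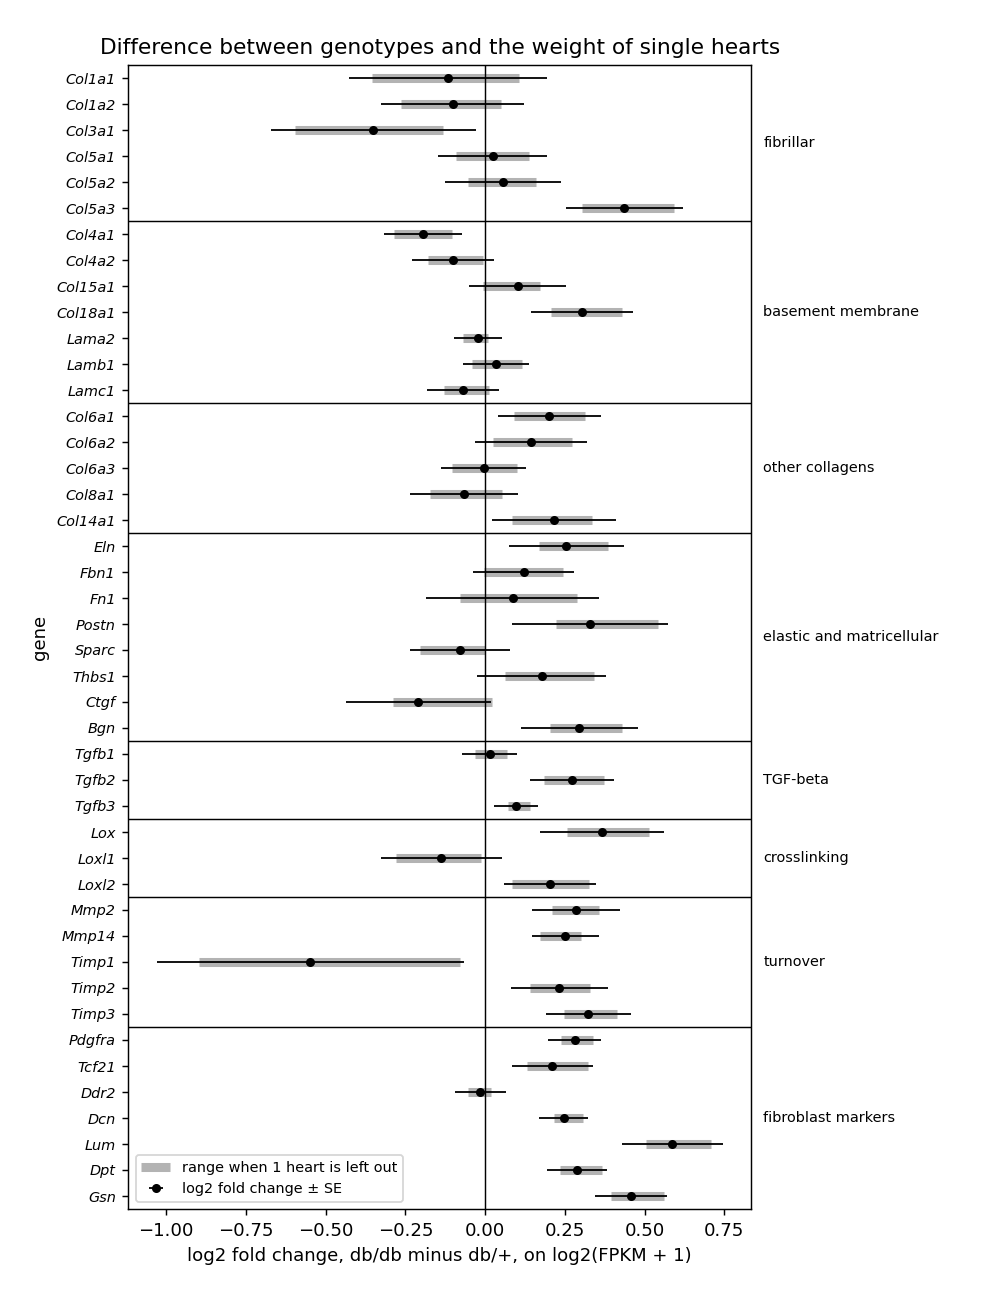
Log2 fold change, db/db minus db/+, of each of the 44 genes on log2(FPKM + 1), with its SE (thin line) and the range it took when each of the 10 hearts was left out in turn (grey bar). The fibroblast markers other than Ddr2 lie right of 0 over the whole grey bar, and the bars of Col1a1 and Col1a2 cross 0.

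Of the 3 TGF-beta ligands 0 passed and all 3 had log2 fold changes above 0. Tgfb1, the best known profibrotic form, was at 2.89, 3.51, 3.17, 2.72 and 3.32 FPKM in db/+ hearts 1 to 5 and 3.398, 3.15, 2.597, 3.73 and 2.98 FPKM in db/db hearts 1 to 5 (limma log2 fold change 0.02, SE 0.0861, adjusted p = 0.941). Tgfb3 was at 4.69, 5.48, 5.09, 4.86 and 5.47 FPKM in db/+ hearts 1 to 5 and 5.81, 5.65, 5.82, 5.69 and 4.798 FPKM in db/db hearts 1 to 5 (limma log2 fold change 0.10, SE 0.069, adjusted p = 0.465). In Tgfb3 4 db/db hearts were above every db/+ heart and db/db 5 was not. Tgfb2 had the lowest level of the 3, at 1.46 ± 0.471 and 1.95 ± 0.394 FPKM (SD, n = 5; limma log2 fold change 0.27, SE 0.132, adjusted p = 0.284).

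Of the 3 crosslinking enzymes 0 passed and 2 were above 0. Loxl1, a lysyl oxidase-like enzyme needed for elastic fibres, was at 7.06, 15.9, 9.41, 9.76 and 14.6 FPKM in db/+ hearts 1 to 5 and 8.94, 9.34, 11.9, 11.4 and 7.94 FPKM in db/db hearts 1 to 5 (limma log2 fold change -0.14, SE 0.1896, adjusted p = 0.7398). The 2 highest hearts were db/+ 2 and db/+ 5 and the lowest was db/+ 1, the same hearts as in type I collagen, where db/+ 5 was above db/+ 2. Loxl2, which crosslinks collagen IV and fibrillar collagen, was at 1.54, 3.96, 2.26, 2.66 and 2.65 FPKM in db/+ hearts 1 to 5 and 3.43, 3.04, 3.12, 3.199 and 2.61 FPKM in db/db hearts 1 to 5 (limma log2 fold change 0.20, SE 0.145, adjusted p = 0.4696), and both the highest and the lowest value were in db/+. Lox, lysyl oxidase itself, was low, at 2.1 ± 0.834 and 3.01 ± 1.02 FPKM (SD, n = 5; limma log2 fold change 0.37, SE 0.194, adjusted p = 0.324).

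Turnover genes split by member. Of the 5, 0 passed, 4 were above 0 and the median was 0.25. Timp3, the inhibitor that binds to the matrix, was at 41.1, 41.5, 37.1, 38.98 and 36.4 FPKM in db/+ hearts 1 to 5 and 60.98, 58.1, 38.2, 54.7 and 38.2 FPKM in db/db hearts 1 to 5. Here db/db 1, 2 and 4 were far above all db/+ hearts, while db/db 3 and 5 lay among them (means 39.03 ± 2.29 and 50.05 ± 11.02 FPKM, SD, n = 5; limma log2 fold change 0.32, SE 0.132, adjusted p = 0.2102). Timp2, which inhibits gelatinase A and also helps activate it, had the same split, at 22.9, 33.4, 28.1, 28.6 and 37.9 FPKM in db/+ hearts 1 to 5 and 40.4, 40.4, 29.98, 41.1 and 26.5 FPKM in db/db hearts 1 to 5 (limma log2 fold change 0.23, SE 0.152, adjusted p = 0.431).

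Mmp2, gelatinase A, had means of 15.1 ± 2.91 and 18.5 ± 3.102 FPKM (SD, n = 5; limma log2 fold change 0.28, SE 0.138, adjusted p = 0.283). Mmp14, the membrane protease that activates it, was low, at 1.76, 2.45, 1.89, 1.77 and 2.33 FPKM in db/+ hearts 1 to 5 and 2.32, 2.24, 3.503, 2.78 and 2.33 FPKM in db/db hearts 1 to 5 (limma log2 fold change 0.25, SE 0.106, adjusted p = 0.223), with db/db 3 highest. Timp1 (chrX:20870166-20874735), the inducible inhibitor, stood apart from Timp2 and Timp3. It was at 5.697, 40.7, 3.32, 11.6 and 11.3 FPKM in db/+ hearts 1 to 5 and 5.91, 8.95, 5.597, 9.604 and 4.86 FPKM in db/db hearts 1 to 5. The value of db/+ 2 was 3.497 times that of the next heart, and without it the log2 fold change of -0.55 was -0.08. The CV of Timp1 was 104% in db/+ and 30.7% in db/db.

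The weight of single hearts was read from the spread within a genotype and from leaving out each heart in turn. The median CV of the 44 genes was 26.7% within db/+ and 16.9% within db/db, against 12.9% and 11.2% over all tested genes. The CV was larger in db/+ than in db/db in 34 of the 44 (77.3%), against 60.4% of tested genes. The heart db/+ 1 was the lowest of the 10 in 27 of the 44 (61.4%), against 12.2% of tested genes, and was above the gene's own mean in 1. The heart db/+ 2 was the highest in 13 (29.5%), against 15.8%, and db/+ 5 in 9 (20.5%), against 23.8%. Among db/db hearts, db/db 2 was the highest in 10 (22.7%, against 11.7%), and db/db 5 was above the gene's own mean in 9 of the 44.

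Leaving out 1 heart turned the sign of the log2 fold change in 16 of the 44 (36.4%), against 28.6% of tested genes. The heart whose removal moved the value most was db/+ 2 in 13 genes (29.5%, against 11.7% of tested genes), db/+ 1 in 9 (20.5%, against 10.9%) and db/+ 5 in 8 (18.2%, against 23.0%). The median of the 6 fibrillar collagens over hearts, relative to their mean, was 0.48 in db/+ 2 and 0.55 in db/+ 5, and -0.53 in db/+ 1, on the log2 scale. For the 7 fibroblast markers it was -0.02, 0.03 and -0.26 in the same hearts.

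Markers of other cells differed in sum between the hearts as well. The 7 epicardial and mesothelial markers summed to 9.07 to 53.9 FPKM in db/+ and 24.8 to 61.2 FPKM in db/db, with the lowest sum in db/+ 1. Of 6 tested 0 passed, and all 6 had log2 fold changes above 0 (median 0.58). The 11 macrophage markers in the table, of 12 listed, summed to 278 to 599.8 FPKM in db/+ and 290.3 to 405 FPKM in db/db, with the highest sum in db/+ 2. Of these 0 passed and 5 were above 0 (median -0.05). The 5 red cell markers summed to 197 to 1464 FPKM in db/+ and 205 to 3939 FPKM in db/db, lowest in db/+ 1 and in db/db 5, with 0 passing and 5 above 0 (median 0.87), and the 8 adipocyte markers to 25.5 to 277 FPKM in db/+ and 16.05 to 88.1 FPKM in db/db, highest in db/+ 5. Of the adipocyte markers 2 were above 0 (median -0.78) and 1, Cfd (adipsin), passed as lower in db/db, as 1.72% of all tested genes did. Lep, the hormone leptin of fat cells, had the next smallest p and a log2 fold change the other way (1.44, limma adjusted p = 0.08595), and was listed at 0 in db/+ 1 and db/+ 2. The 5 atrial markers summed to 1304 to 2622 FPKM in db/+ and 1313 to 3269 FPKM in db/db, with 0 passing and all 5 above 0 (median 0.42). Of 7 myofibroblast and smooth muscle markers 6 were above 0 (median 0.30), and of 8 cardiomyocyte markers 0 were (median -0.10). The part of these cells in the matrix results was not tested.

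Other genes of the same pathways were read from 6 further lists. Over all tested genes, 1.29% were called higher and 1.72% lower. Of 20 tested genes of collagen processing and secretion, 1 was called higher and 0 lower, with a median log2 fold change of -0.03. The called gene was Fkbp10, a prolyl isomerase of procollagen folding, at 8.102, 7.13, 6.75, 6.73 and 8.19 FPKM in db/+ hearts 1 to 5 and 10.1, 11.02, 11.9, 9.44 and 8.62 FPKM in db/db hearts 1 to 5; no values overlapped (limma log2 fold change 0.42, SE 0.0903, adjusted p = 0.0345). Plod1, a collagen lysyl hydroxylase, had the next smallest p (limma log2 fold change -0.24, SE 0.084, adjusted p = 0.143). Of 16 tested TGF-beta receptors, binding proteins and SMADs 0 passed (median 0.06), with the smallest p in Smad6 (log2 fold change 0.25), an inhibitory SMAD, and Ltbp1 (-0.17), which stores latent TGF-beta.

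Of 15 tested further proteases and inhibitors, 1 was called higher and 0 lower (median 0.11). It was Adamts1, a protease of versican and other proteoglycans, at 6.52, 7.44, 6.81, 8.58 and 7.21 FPKM in db/+ hearts 1 to 5 and 9.95, 10.3, 10.6, 8.89 and 10.5 FPKM in db/db hearts 1 to 5, and db/db hearts were all above db/+ hearts (limma log2 fold change 0.41, SE 0.0774, adjusted p = 0.0191). Mmp15, a membrane protease, had a log2 fold change of -0.47 and was lower in all db/db hearts than in any db/+ heart without passing (adjusted p = 0.0878). Of 10 tested other basement membrane proteins 0 passed (median 0.01), with the smallest p in Sparcl1 (0.18), a relative of Sparc, and Lamb2 (-0.20), a laminin chain. Of 15 tested matrix receptors 1 was higher and 1 lower (median 0.07). Cd36, which binds thrombospondin and takes up fatty acids, rose (limma log2 fold change 0.45, SE 0.0817, adjusted p = 0.0165), and Itga9, an integrin chain, fell (limma log2 fold change -0.40, SE 0.0737, adjusted p = 0.0176).

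The last of the 6 lists, other fibroblast and matrix genes, had the most tested genes, 27. Of these 3 were called higher and 0 lower, against 1.29% and 1.72% of all tested genes. The median was 0.22, and 21 of 27 were above 0. The lists were chosen with earlier results of these data known, so their counts of calls are not ranked. Thbs2, thrombospondin-2, a matricellular protein, rose from 3.898 ± 0.467 to 7.07 ± 1.41 FPKM (SD, n = 5; limma log2 fold change 0.71, SE 0.115, adjusted p = 0.00937), at 4.18, 4.37, 3.74, 3.17 and 4.03 FPKM in db/+ hearts 1 to 5 and 9.28, 7.64, 6.26, 6.35 and 5.83 FPKM in db/db hearts 1 to 5. Every db/db heart was above every db/+ heart. Fbln5, fibulin-5, which assembles elastic fibres, rose from 2.87 ± 0.648 to 5.06 ± 0.811 FPKM (limma log2 fold change 0.65, SE 0.134, adjusted p = 0.0271), and Islr, a marker of mesenchymal stromal cells, from 8.88 ± 0.918 to 13.1 ± 1.92 FPKM (limma log2 fold change 0.50, SE 0.105, adjusted p = 0.0285), both without overlap. When each heart was left out in turn, Thbs2 passed in 10 of 10 fits. Cd36 and Itga9 passed in 9, not without db/db 3, and Adamts1 in 8, not without db/+ 3 or db/db 3. Fbln5 passed in 4, Fkbp10 in 3 and Islr in 3, all 3 of them without db/+ 5 and without db/db 5 and none without db/db 1, 2, 3 or 4.

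In the m6A peak lists, most of these transcripts carried a mark. A peak in at least 1 heart was present in 38 of the 45 genes (84.4%), against 72.7% of tested genes, and a peak in all 10 hearts in 12 (26.7%), against 20.2%. These shares are not matched for level, and genes at higher levels more often had a peak. Of genes at 2 to 10 FPKM 27.8% had no peak, and of those at or above 100 FPKM 13.1%. The 12 were Col1a1, Col1a2, Col4a1, Lamb1, Lamc1, Col6a1, Col6a2, Ctgf, Bgn, Timp3, Pdgfra and Dpt. The 7 genes with no peak were Gsn, Fn1, Thbs1, Timp1, Tcf21, Col14a1 and Cthrc1. Gsn had the highest level of all 44 genes, 414 FPKM over the 10 hearts. Of 98 tested genes at or above 300 FPKM, 9 (9.18%) had no peak.

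Of the 45 genes, 0 had a peak in at least 4 hearts of db/db and at most 1 of db/+, and 0 the reverse, against 0.608% and 1.23% of the 8054 genes with a peak. Peaks merged over hearts where their exon blocks overlapped gave 84 regions in these genes, 12 of them present in all 10 hearts and 28 in 1 heart. By the same rule 0 of the 84 regions differed in either direction, against 0.578% and 1.11% of all 15747 regions. Fisher's exact test over hearts, two-sided, gave 0 genes (0%) and 0 regions (0%) at an adjusted p under 0.05 anywhere in the lists, where unadjusted 0.67% of genes and 0.673% of regions were under 0.05, none of them among the matrix and fibroblast genes. With 5 hearts a genotype the smallest p this test can give is 0.00794, which cannot pass adjustment over so many genes or regions, and at such low shares over all genes a count of 0 among these 45 genes or 84 regions is close to the background. The smallest exact p among the 84 regions was 0.167, for a region in 3 hearts of one genotype and 0 of the other. These were a coding region of Timp2 and the last region of the Col1a2 3′ untranslated region (UTR), each in 3 db/+ hearts, and a coding region of Col5a2, in 3 db/db hearts.

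**Figure D5:**
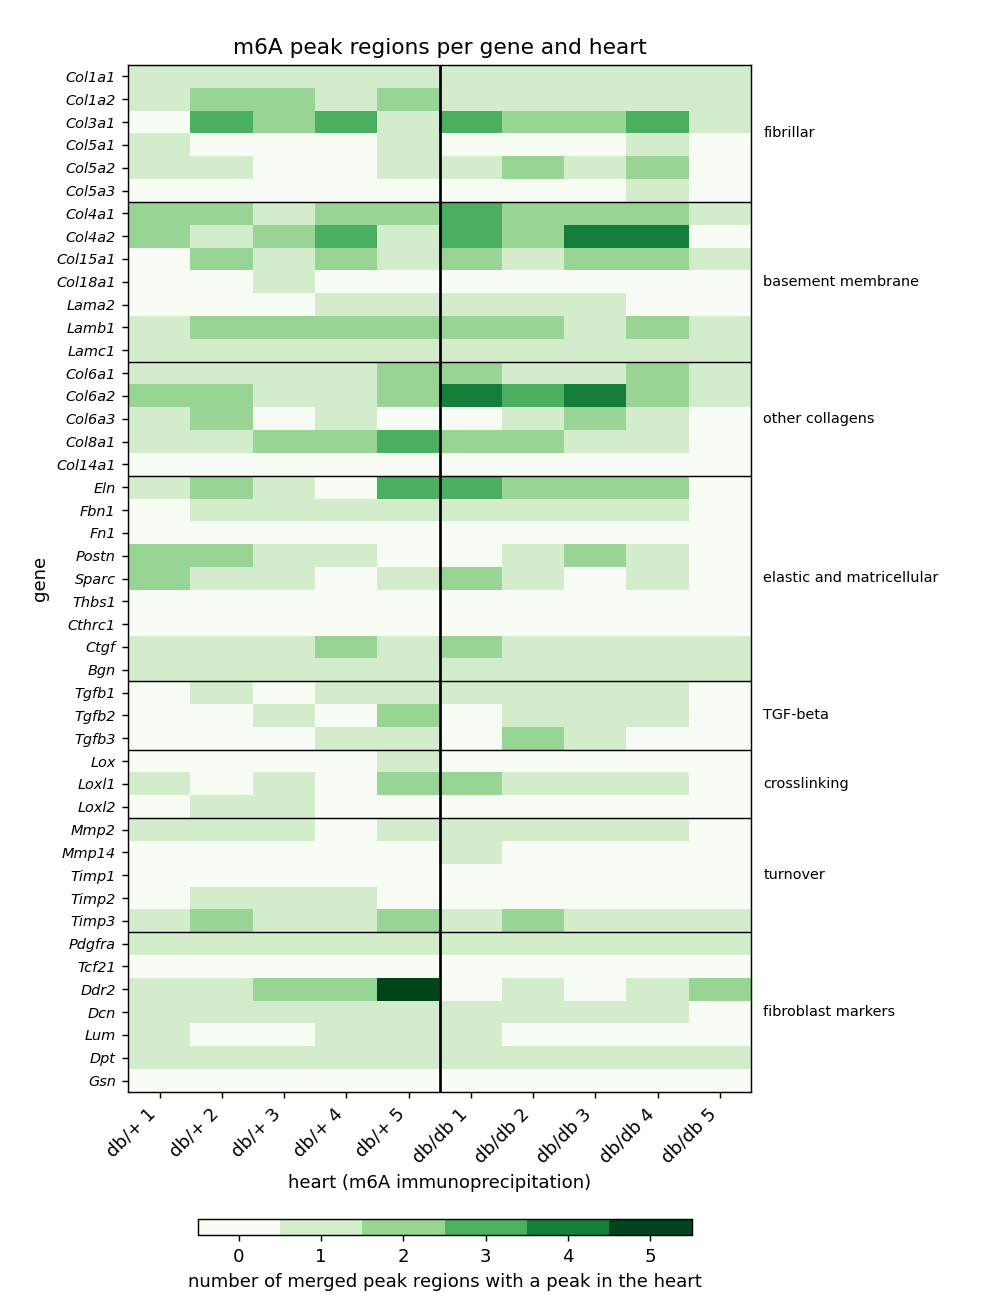
Number of merged m6A peak regions with a peak in each heart (columns) for each of the 45 genes (rows, by role), from 0 (palest) to 5 (darkest). Col1a1, Lamc1, Bgn, Pdgfra and Dpt show 1 region in all 10 hearts, Gsn, Timp1 and Fn1 show none, and the column of db/db 5 is the emptiest.

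Peaks sat at different places along these transcripts. Of the 84 regions, 36 (42.9%) were in coding sequence alone, 33 (39.3%) in the 3′ UTR alone, 12 (14.3%) held both coding sequence and 3′ UTR, and 3 (3.57%) touched the 5′ UTR. Over all regions these shares were 31.5%, 46.9%, 17.2% and 4.38%. Counted by single peaks, of which these genes had 591, the order turned: 39.1% were in coding sequence alone and 45.9% in the 3′ UTR alone, against 42.9% and 36.4% of all peaks. So no direction is read from these shares. Positions are as deposited and fit GRCm38, are counted from 1 and run from the first to the last exon block, introns included. The folds that follow are the authors' ratios of immunoprecipitated to input signal, are not corrected for the level of the gene, and describe each region only.

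Among fibrillar collagens the coding and 3′ UTR region of Col1a1, chr11:94951485-94952084, was in all 10 hearts with a median fold of 5.29, and the matching one of Col1a2, chr6:4540588-4541066, was too. Col3a1 had 4 regions, of which the coding one at chr1:45331683-45334773 was in 3 db/+ and 5 db/db hearts. Col5a3, of the larger fold change in level, had 1 peak in 1 heart. In the basement membrane group the coding and 3′ UTR region of Lamb1, chr12:31326305-31329644, was in all 10 hearts (median fold 3.08), as was the coding region of Col4a1 at chr8:11213611-11220026. Col4a2 held the most regions of any of the genes, 6, of which the coding one at chr8:11438038-11439381 was in 4 hearts of each genotype.

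Col6a2 carried a coding region over chr10:76605077-76614351 in all 10 hearts (median fold 4.57), and Ctgf a 3′ UTR region at chr10:24598468-24598683 in all 10 (median fold 3.19). Of the TGF-beta ligands, the coding and 3′ UTR region of Tgfb1 at chr7:25704839-25705077 was in 3 db/+ and 4 db/db hearts (median fold 5.62). Both 5′ UTR regions of Tgfb3 were in db/db hearts only, in 2 and in 1 of them, which the test cannot set apart (exact p = 0.444 and 1). Of the crosslinking enzymes, Loxl1 had a coding region at chr9:58311957-58312467 in 3 db/+ and 4 db/db hearts (median fold 3.72), and Loxl2 a 3′ UTR region in 2 db/+ hearts and 0 db/db hearts.

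Timp3 had a 3′ UTR region at chr10:86347414-86348072 in all 10 hearts (median fold 2.44), while Timp1 had none and Timp2 1. Among the fibroblast markers the coding and 3′ UTR region of Pdgfra, chr5:75195046-75195923, was in all 10 hearts and had the highest median fold of the 12 such regions, 6.93. Dpt had its 3′ UTR region at chr1:164823880-164824266 in all 10, and Dcn its one at chr10:97517815-97518143 in 5 db/+ and 4 db/db hearts. Ddr2 had 5 regions, all in the 3′ UTR, and all 5 were found together only in db/+ 5. Lum had 2 coding regions, in 1 and in 3 hearts.

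The number of these genes with a peak followed the length of the list. It was 31 in db/+ 5, 15 in db/db 5 and 25 to 30 in the other 8 hearts, and the number of regions was 47, 16 and 30 to 45. As a share of all regions in the heart, the genes took 0.459% in db/db 5, 0.487% in db/+ 5 and 0.529% to 0.689% in the others. More db/db than db/+ hearts had a peak in 9 of the genes, and fewer in 12.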

How the data were processed

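Poly(A) RNA of 10 hearts was sequenced with a stranded kit, per the labels' protocols. Named in the submitters' processing notes are HISAT2 2.1.0, Trimmomatic 0.32, FastQC 0.11.7 and the build mm9. Neither the program behind the FPKM nor the peak caller is given in the sources used here. The FPKM deposited by the authors correct for transcript length and library size and cover the input libraries. No gene of the table had a mean under 0.5 FPKM in both genotypes. Mitochondrial transcripts share that scaling, so the FPKM of all other genes move when their share does. Every db/db heart had a larger mitochondrial share than db/+ 1, 2, 3 and 5, so this scaling is not separate from genotype. The peak lists, 1 per heart, give a fold (a ratio of immunoprecipitated to input signal) and a p-value per peak, both as deposited by the authors and used only to describe or filter peaks. Of 146953 peak lines, 5117 repeated a position and were removed. Positions fit GRCm38: 41 of 43 member genes matched by symbol and chromosome had a start or end within 50 bp. None were converted.

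Levels were tested with limma 3.58.1 in R 4.3.3 (eBayes with a trend) on log2(FPKM + 1), over the 10344 genes whose mean reached 1 FPKM, with Benjamini-Hochberg adjustment over all of them, and the fit was tested on simulated data. Peaks were merged over hearts where exon blocks on one strand overlapped by at least 1 bp. The presence of a gene's or region's peak was taken to differ where 4 or 5 hearts of a genotype had it and 0 or 1 of the other did. P-values of Fisher's exact test were adjusted over all genes or all regions.

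The members, their 8 subgroups and the 19 context lists were chosen with earlier results of these data known. Every member is accounted for. Full values went to the 8 with the smallest p, the 2 most abundant of each subgroup and those whose call turned on 1 heart, with other members added where their values were of interest, and of each context list the 2 genes of smallest p and all called genes were named. A gene of the red cell list picked by this rule, which did not pass, is not reported here. Alternatives were another pseudocount, filters, scalings, mitochondrial share as covariate, replicate block, robust eBayes, each heart left out, and stricter or longer-overlap peaks.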

Additional observations from a re-analysis of the deposited data

Results flagged for a closer look

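In groups of 5 hearts, the highest or lowest heart was compared with its nearest neighbour, and a gap above 0.71 of the group's whole range was taken as standing apart. Chance gives this in about 1 in 20 groups. Of 88 groups of FPKM, 44 genes in each genotype, 7 stood apart.

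Among db/+ hearts, db/+ 2 stood apart in 3 genes. Ctgf reached 82.6 FPKM there, and the other db/+ hearts lay from 34.4 to 39.2 FPKM. Timp1 was at 40.7 FPKM against 3.32 to 11.6 FPKM, and Lox at 3.55 FPKM against 1.48 to 2.01 FPKM. The summed macrophage markers were also highest in db/+ 2, and their part in these values was not tested.

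Among db/db hearts, db/db 5 was the low one in 3 genes. Dcn was at 112 FPKM in it, with 136 to 142 FPKM in the other db/db hearts, Tgfb3 at 4.80 against 5.65 to 5.82 FPKM, and Col18a1 at 1.31 FPKM against 2.45 to 2.67 FPKM. Col4a2 was low in db/db 4, at 24.0 against 27.4 to 28.7 FPKM.

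In the peak lists, db/db 5 held 8462 peaks against 13821 to 15607 in the other db/db hearts, 15 of the 45 genes with a peak against 27 to 30, and 16 of their regions against 40 to 45. The list of db/+ 5 held 20021 peaks against 12385 to 14483 in the other db/+ hearts.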

How the results depend on the processing

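Of the 44 matrix and fibroblast genes, 0 passed with another pseudocount (0.1), without a filter, under robust eBayes or with the replicate block, 1 (Gsn) with a filter at a mean of 5 FPKM, with scaling to the sum outside the mitochondrial genome and with mitochondrial share as covariate, 2 (Gsn and Pdgfra) with equal library medians or quantile normalization, and 3 without db/+ 5 and db/db 5. The number of the 44 without overlap was 2 with equal medians and 2 with the non-mitochondrial scaling. The share of all tested genes without overlap was not counted under these settings, so nothing is read from these counts. All genes called numbered 311 in the main fit, 137 with mitochondrial share and 72 with the replicate block. Totals for the filter, the scalings and the removal of db/+ 5 and db/db 5 are not given here. Nothing is therefore read from the numbers of the 44 that passed in those settings. Nothing in the labels says that the replicate numbers pair the hearts. Same-numbered hearts deviated from their group means with correlations of -0.11 to 0.03. Of the 5 db/+ hearts, 0 correlated best with the db/db heart of the same number. Such values show no shared deviation in level and cannot exclude a pairing of the animals. With each heart left out in turn, all calls numbered 112 to 315, those among the 44 genes 0 to 3, and those of the 44 without overlap 0 to 6. The share of all genes without overlap was not counted there either, and a smaller group separates more easily.

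Genes with a peak that differed by genotype numbered 148, and 96 where the authors' p-value had to be under 1e-05. Regions numbered 266, and 146 under that limit. Of the matrix and fibroblast regions 1 differed with a fold of at least 2 (Postn) and 1 with the stricter p-value (Eln). At that fold, 84 of all 15180 regions differed toward db/db and 181 toward db/+, and under that p-value 146 of 7107 differed. Beside these shares a count of 1 is close to the background, so no difference in Postn or Eln is read. With a heart left out, the rule asks for 3 hearts of the smaller group. The counts were then 243 to 311 genes, 406 to 527 of 13741 to 15673 regions and 1 to 3 of the matrix and fibroblast regions. The last count is again close to the background.

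None of the log2 fold changes that changed sign was called under any setting. With mitochondrial share as covariate the values were Col1a1 0.49, Col1a2 0.30, Col3a1 0.22, Col4a1 0.034, Col4a2 0.12, Lamc1 0.081, Col6a3 0.10, Sparc 0.094, Loxl1 0.22 and S100b 0.25. Without db/+ 5 and db/db 5 they were Col1a1 0.22, Col1a2 0.14, Lama2 0.025, Lamc1 0.059, Col6a3 0.027, Sparc 0.066, Loxl1 0.028, Ddr2 0.021 and S100b 0.017. Equal library medians gave Lama2 0.0073, Col6a3 0.024 and Ddr2 0.016, scaling to the non-mitochondrial sum Lama2 0.0066, Col6a3 0.023 and Ddr2 0.015, quantile normalization Lama2 0.011, Col6a3 0.024 and Ddr2 0.015, and a pseudocount of 0.1 Col6a3 0.0042. Leaving out 1 heart, the ranges that crossed 0 were Col1a1 -0.35 to 0.11, Col1a2 -0.26 to 0.049, Col5a1 -0.090 to 0.14, Col5a2 -0.055 to 0.16, Col15a1 -0.0078 to 0.17, Lama2 -0.070 to 0.0089, Lamb1 -0.040 to 0.12, Lamc1 -0.13 to 0.012, Col6a3 -0.10 to 0.099, Col8a1 -0.17 to 0.054, Fbn1 -0.0034 to 0.25, Fn1 -0.078 to 0.29, Sparc -0.21 to 0.0011, Ctgf -0.29 to 0.022, Tgfb1 -0.032 to 0.067, Ddr2 -0.055 to 0.019 and S100b -0.24 to 0.087. The causes of these shifts were not tested, and mitochondrial share itself ran higher in db/db.

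With 5 hearts a genotype and a median CV of 26.7% in db/+, small differences in these genes are not detectable here, and depth is unknown for both FPKM and peaks.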

Other observations

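Away from the matrix, several marker lists of neighbouring cells held single genes that passed. Over all tested genes, 1.29% were called higher and 1.72% lower. Of 7 tested pericyte markers 1 was called lower and 0 higher, 3 had a log2 fold change above 0, and the median was -0.0047. The called gene was Abcc9, a channel subunit listed here as a pericyte marker, and the cells behind its fall were not tested. It fell from 24.5 ± 3.63 to 18.1 ± 1.03 FPKM (SD, n = 5). The limma log2 fold change was -0.41 (SE 0.0936, adjusted p = 0.0436). Abcc9 was at 27.98, 21.4, 24.1, 28.5 and 20.7 FPKM in db/+ hearts 1 to 5 and 16.6, 19.3, 18.2, 18.7 and 17.8 FPKM in db/db hearts 1 to 5. The genotypes did not overlap. Higd1b, another pericyte marker, had a log2 fold change of 0.25 and did not pass. Of 8 cardiomyocyte markers 1 was called lower: Myl2, the ventricular regulatory light chain, fell from 1839.8 ± 246 to 1421 ± 85.6 FPKM (SD, n = 5; limma log2 fold change -0.36, SE 0.0857, adjusted p = 0.0466). Myh6, the main myosin heavy chain of the mouse heart, had a log2 fold change of -0.31 (adjusted p = 0.0871), and the cardiomyocyte markers summed to 12747 to 16108 FPKM in db/+ and 11864 to 13181 FPKM in db/db.

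Of 10 endothelial markers 0 passed, and Pecam1 and Vwf had the smallest p (log2 fold changes 0.30 and 0.59). In Pecam1 the db/+ hearts lay within 26.02 and 27.1 FPKM, 4 db/db hearts were above that and db/db 5 was below it. Of 7 myofibroblast and smooth muscle markers 0 passed. Their median log2 fold change was 0.30, with the smallest p in Myl9 (0.59) and Tagln (0.52), and their sum was lowest in db/+ 3 and highest in db/db 3. Of 9 immediate early genes 1 was called lower, Ier3 (limma log2 fold change -0.34, SE 0.0811, adjusted p = 0.04795), and Jun had a log2 fold change of -0.22. In the macrophage, atrial, epicardial and valve lists, 0 genes passed, and the pairs with the smallest p were Mrc1 (0.27) and Cd163 (0.31), Myl4 (0.45) and Sln (0.28), Upk1b (0.61) and Krt19 (0.70), and Comp (0.50) and Scx (-0.22), as log2 fold changes. The nerve marker S100b had one of -0.10 and the red cell marker Alas2 one of 0.92, neither of which passed. The adipocyte marker Cfd was at 15, 11.3, 78.5, 46.2 and 110.4 FPKM in db/+ hearts 1 to 5 and 3.33, 7.64, 1.68, 13.1 and 1.58 FPKM in db/db hearts 1 to 5 (limma log2 fold change -2.89, SE 0.656, adjusted p = 0.0411), and the genotypes overlapped. Lep was at 0, 0, 0.035, 0.082 and 0.629 FPKM in db/+ hearts 1 to 5 and 1.001, 4.02, 0.343, 7.14 and 1.4 FPKM in db/db hearts 1 to 5 (limma log2 fold change 1.44, SE 0.409, adjusted p = 0.08595), and did not pass. The 6 lymphocyte markers were not in the table. With each heart left out in turn, Abcc9 and Myl2 passed in 2 of 10 fits (without db/+ 2 and without db/+ 5), Cfd in 3 (without db/+ 1, db/+ 2 or db/db 4) and Ier3 in 0.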
